A study of Mus musculus with 14 samples.

Results

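The regions described here are gene-near intergenic peaks of chromatin immunoprecipitation sequencing (ChIP-seq) in mouse muscle cells. A peak was taken when it lay off the mitochondrial chromosome, when the authors' annotation called it intergenic, when its distance to the nearest annotated transcription start was 10000 bp or less, and when it lay in no annotated repeat or CpG island. The rule used position and annotation and no measured signal. It took 17715 of the 517058 peaks in the 10 deposited lists, and another 118954 peaks of the same annotation class lay farther than 10000 bp from a start.

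The study asked how the long noncoding RNA Myolinc affects binding of TDP-43 in differentiating muscle cells. All libraries came from C2C12, an established line of mouse myoblasts, on day 2 of differentiation in low-serum medium. The control libraries carried no listed transfection, and the knockdown libraries (siMyolinc) came from cells given 10 nM siRNA against Myolinc before differentiation began. The labels do not say whether the controls received a control siRNA. The 4 antibodies recognised TDP-43, MyoD, Myogenin and the polymerase II form with phosphate on serine 2 of the C-terminal repeat (Pol II S2P). There were 3 control libraries for TDP-43 and 1 library for each other combination of antibody and condition, so 6 control and 4 siMyolinc lists were compared. Nothing in the labels says that the 3 TDP-43 controls were separate cultures, so p-values across them reflect the spread of these samples alone, and that spread may be technical. The Myolinc transcript is not measured by ChIP-seq and its knockdown was not checked, and peak lists hold no expression values against which the cell type could be checked. The other 4 of the 14 samples were input and IgG libraries, which were not analysed here.

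TDP-43 (encoded by Tardbp) is a protein that binds RNA and DNA and is best known for its preference for runs of alternating T or U and G. MyoD and Myogenin are basic helix-loop-helix factors that turn on muscle genes through E-boxes, for which CAGCTG is a preferred form. Pol II S2P marks polymerase in elongation. Intergenic DNA within a few kilobases of a gene is where many proximal enhancers lie, and the enhancers of MyoD-family genes are a classic case. A peak there does not by itself show that the nearest gene is its target.

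The lists differed in depth and in peak shape, and these differences run through every comparison below. Peak scores in each list were whole multiples of a step that was read as 1 sequence tag. If scores are scaled to 10000000 tags, the 3 TDP-43 controls held 1394416, 1086957 and 962363 tags and the Pol II S2P control 1455038, whereas the other 6 libraries held 3040129 to 3775523. Peaks were 217 to 249 bp wide in 8 lists and 75 bp wide in the siMyolinc lists of MyoD and Myogenin. The median member had 6 to 8 tags in the TDP-43 lists, the MyoD control and the Pol II S2P control, 12 in Pol II S2P siMyolinc, 16 in the Myogenin control, 24 in MyoD siMyolinc and 138 in Myogenin siMyolinc. A tag count therefore compares peaks within a list and not between lists.

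A small set of the peaks, 135 of 17715 (0.762%), overlapped the start window of a RefSeq transcript, from 250 bases before to 50 bases after its start, and for 33 of them that transcript belonged to the nearest gene named in the list. The following stretches are the parts of TDP-43 peaks that lay in such a window upstream of the start. They are shown because the peak was among the 3 with most tags of its list, because its gene is on the muscle or myogenic-regulator list or has members in 8 or more lists, or because members of more than 1 TDP-43 list met the same window, a choice made after the data were seen. Sequences and coordinates are RefSeq's on GRCm38.p6, the assembly also named mm10, and are written 5′ to 3′ on the strand of the transcript. Capitals mark CAGCTG, and TGTGTG or its reverse complement CACACA.

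Trhde, chr10:114802303-114802490, minus strand: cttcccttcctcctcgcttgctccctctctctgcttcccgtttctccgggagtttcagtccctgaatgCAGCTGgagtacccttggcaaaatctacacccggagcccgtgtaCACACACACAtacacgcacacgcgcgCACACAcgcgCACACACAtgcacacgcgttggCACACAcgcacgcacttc
Myl2, chr5:122092670-122092723, plus strand: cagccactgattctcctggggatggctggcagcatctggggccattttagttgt
Irx3 (Irx3os start), chr8:91803086-91803225, plus strand: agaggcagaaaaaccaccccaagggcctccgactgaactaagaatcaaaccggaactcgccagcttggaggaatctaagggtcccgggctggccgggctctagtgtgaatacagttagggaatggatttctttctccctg
Tshz2, chr2:169632379-169632508, plus strand: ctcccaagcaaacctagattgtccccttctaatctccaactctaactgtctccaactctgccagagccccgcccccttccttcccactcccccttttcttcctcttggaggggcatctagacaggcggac
Rab3il1, chr19:10014957-10015046, plus strand: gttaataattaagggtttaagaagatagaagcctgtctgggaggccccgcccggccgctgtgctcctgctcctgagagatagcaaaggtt
Ston1 (Gm31704 start), chr17:88625500-88625629, minus strand: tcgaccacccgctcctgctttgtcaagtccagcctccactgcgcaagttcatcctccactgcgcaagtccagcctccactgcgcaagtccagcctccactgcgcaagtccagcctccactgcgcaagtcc
Umodl1 (Gm41562 start), chr17:30945679-30945784, plus strand: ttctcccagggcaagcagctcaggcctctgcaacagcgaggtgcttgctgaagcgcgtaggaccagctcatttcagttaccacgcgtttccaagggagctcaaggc
2310007L24Rik (LOC108167929 start), chr11:106365470-106365604, plus strand: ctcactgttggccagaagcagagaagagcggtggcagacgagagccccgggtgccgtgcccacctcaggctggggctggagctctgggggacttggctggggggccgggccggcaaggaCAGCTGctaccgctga
4931429L15Rik (Gm39329 start), chr9:46328715-46328925, plus strand: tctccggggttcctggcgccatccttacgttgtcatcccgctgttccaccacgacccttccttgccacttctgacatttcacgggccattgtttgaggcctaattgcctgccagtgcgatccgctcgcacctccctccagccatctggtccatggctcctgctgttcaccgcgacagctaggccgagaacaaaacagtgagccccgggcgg
Mir7216 (Gm10505 start), chr17:27325117-27325195, plus strand: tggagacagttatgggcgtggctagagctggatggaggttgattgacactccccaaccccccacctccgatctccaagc

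The Trhde stretch held the most tags of any TDP-43 siMyolinc member, 17, and carried 4 separate blocks of CACACA repeats and a CAGCTG. Trhde encodes an enzyme that degrades thyrotropin-releasing hormone. The peak lay -1012 bp from the start named in the list and spans the RefSeq start. The Myl2 stretch belonged to a peak with 15 tags in TDP-43 control 1, -8186 bp from the start the list used but at a start that RefSeq also gives to Myl2, the regulatory light chain of slow and cardiac myosin. Of all 32851 RefSeq start windows, 16.3% held CAGCTG and 21.1% held TGTGTG or CACACA, both strands being searched. Of the 44 windows met by TDP-43 members, 25% held CAGCTG and 34.1% TGTGTG or CACACA, against 19.6% and 17.6% of 51 windows met by MyoD or Myogenin members and 36.6% and 24.4% of 41 met by Pol II S2P members. The shares are of windows, and a peak may cover only part of its window. These are matches of letters in few windows and were not tested.

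MicroRNA genes were among the nearest genes with members in the most lists. Their mature sequences are shown with the seed, bases 2 to 8, in capitals, and no pair of the 4 shares a seed.

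mmu-miR-8091, chr19:41588691-41588712, plus strand: aGGAGUGAgugguaagcuggug
mmu-miR-7216-5p, chr17:27328385-27328408, plus strand: uGGAGAGCuggcagaggacccaga
mmu-miR-7216-3p, chr17:27328440-27328460, plus strand: uGGAAUUUggucuuuuccggc
mmu-miR-568, chr16:43640665-43640684, plus strand: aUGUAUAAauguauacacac

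Mir8091 had members in 9 lists, Mir7216 in 8 and Mir568 in 7. The Mir8091 peaks of the 3 TDP-43 controls held 19, 11 and 5 tags at -1691, -1725 and -1695 bp, and overlapping peaks of the Pol II S2P control and the MyoD control held 13 and 11. The TDP-43 siMyolinc member of Mir8091 lay elsewhere, 4261 bp downstream, with 6 tags.

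Members lay mostly upstream. The rule itself sets much of this, because positions just downstream of a start fall in the gene body and because the authors' promoter class takes the peaks nearest the start, and the nearest member of any list lay 1001 bp from a start. In TDP-43 control 1 the fullest 1 kb bin lay from -3 to -2 kb with 11.7% of members, closely followed by -2 to -1 kb with 11.6%. In TDP-43 control 2 the bin from -2 to -1 kb held 16.1%. The upstream share of members was 81.5%, 80.6% and 80.4% in the TDP-43 controls and 86.7% in TDP-43 siMyolinc, outside the range of the controls. The control mean was 80.8% ± 0.585 (SD, n = 3), and the difference of 5.87 percentage points had an exact two-sided permutation p of 0.25, the smallest that 3 against 1 allows. With the window narrowed to 5000 bp the difference was 1.61 points (exact p = 0.5). The share was 78.8% in the Pol II S2P control and 85.3% after siMyolinc, 86.1% and 85.2% for MyoD, and 85.4% and 84.5% for Myogenin, each from 1 library. The Wilson intervals of control and siMyolinc overlapped for MyoD (84.7% to 87.4% and 84.0% to 86.3%) and for Myogenin (84.3% to 86.5% and 81.6% to 87.0%). The lists below 82% were the 4 shallow control libraries, so depth moves with the result, and its part was not tested. Among peaks of the same class farther than 10000 bp, 56.1% to 59.3% lay upstream of the nearest start.

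**Figure D1:**
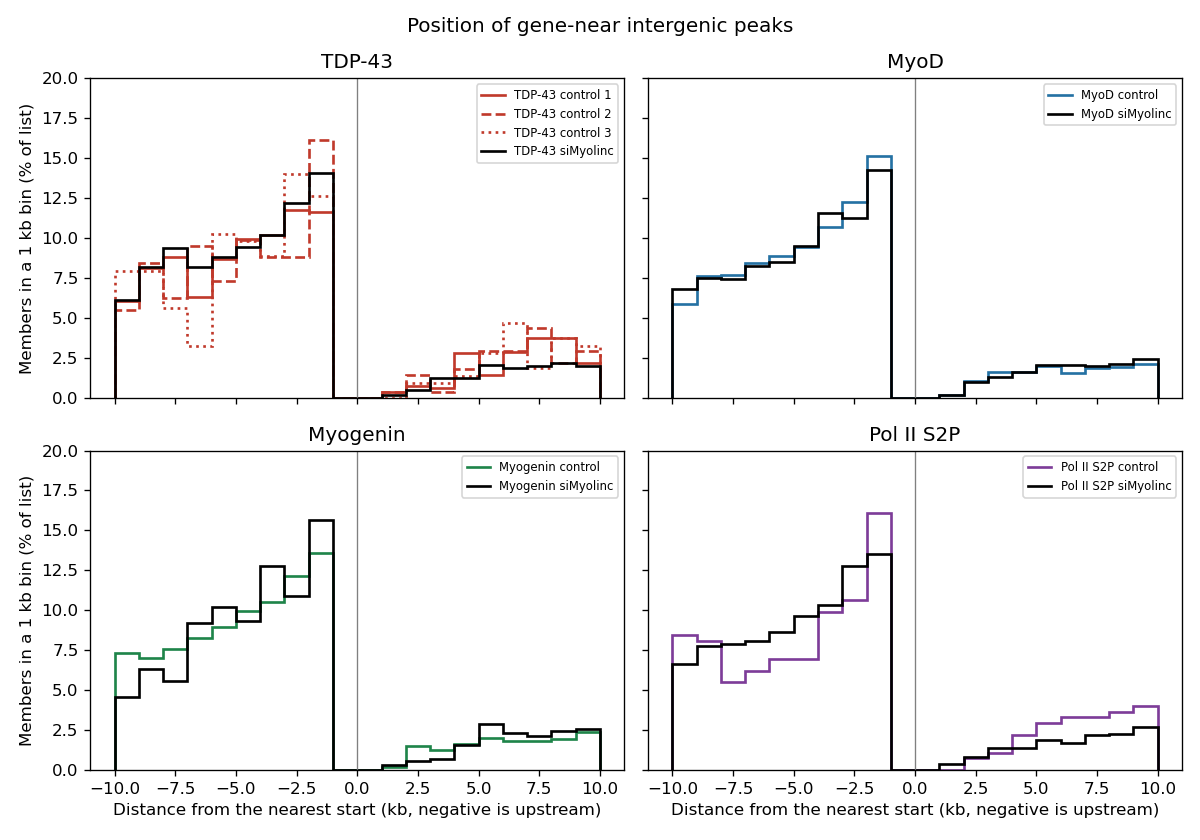
Share of each list's members (%, vertical) by distance to the nearest transcription start in bins of 1 kb (horizontal, negative is upstream), for 4 antibodies, with control lists in colour and siMyolinc lists in black. Members concentrate upstream, no bin within 1 kb of the start is filled, and the bin from -2 to -1 kb of TDP-43 control 2 reaches 16.1%.

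The 10 kb limit fell where the lists held peaks on both sides of it. In TDP-43 control 1, 68 members lay 9 to 10 kb from a start and 75 peaks of the same class lay 10 to 11 kb away, with a median of 8 tags on either side. In the Pol II S2P control these counts were 34 and 13, with medians of 6 and 8 tags. In Myogenin siMyolinc they were 50 and 43, with medians of 141.5 and 123 tags.

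Gene-near intergenic peaks made up 2.78%, 2.58% and 2.62% of the TDP-43 control lists and 3.85% of the TDP-43 siMyolinc list. The control mean was 2.66% ± 0.105 (SD, n = 3), and the siMyolinc list lay 1.19 percentage points above it, with an exact two-sided permutation p of 0.25, again the smallest possible. The difference was 1.29 points when each TDP-43 list was shortened to the length of the shortest. For Pol II S2P the shares were 2.55% in control and 3.73% after siMyolinc, for MyoD 3.39% and 3.53%, and for Myogenin 3.34% and 3.41%. As a share of all intergenic peaks outside repeats and CpG islands, members stood at 16.4%, 18.9% and 18.8% in the TDP-43 controls and at 15.5% in siMyolinc, so the direction turned, to a difference of -2.50 points from the control mean (exact p = 0.25). For Pol II S2P this share was 18.0% in control and 14.6% after siMyolinc. That share was 11.4% in control and 13.2% after siMyolinc for MyoD, and 10.8% and 13.1% for Myogenin. The TDP-43 and Pol II S2P lists after siMyolinc thus held more members among all peaks but fewer among intergenic peaks than their controls, without a replicate of siMyolinc to test either.

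**Figure D2:**
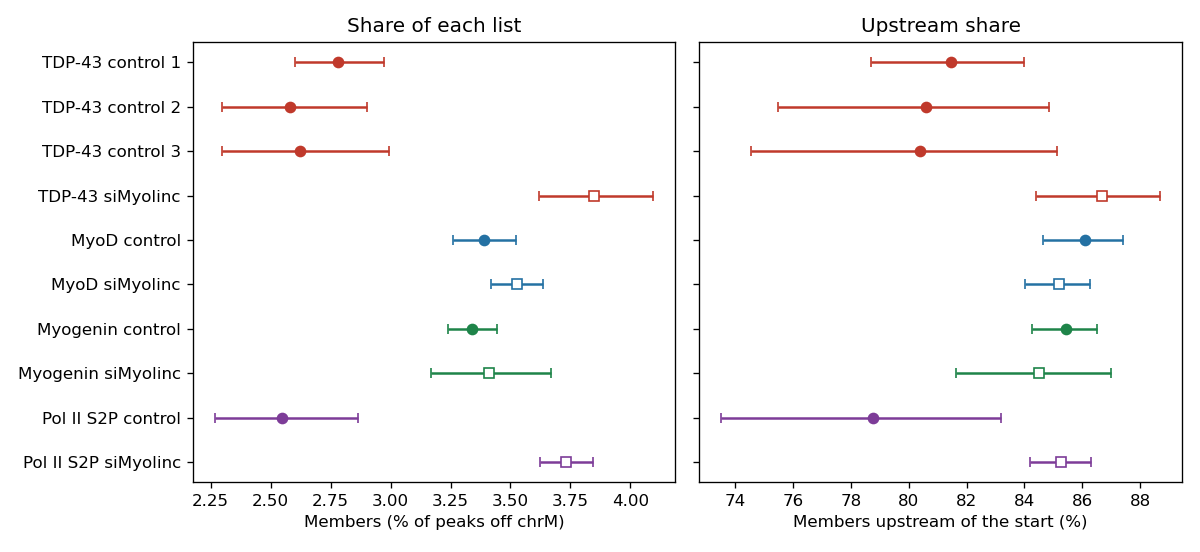
Members as a share of all peaks off the mitochondrial chromosome (left, %) and the share of members upstream of the start (right, %) in each of the 10 lists, with 95% Wilson intervals that cover counting error only; filled circles are control lists and open squares siMyolinc lists. The 3 TDP-43 controls and the Pol II S2P control lie lowest in both, at 2.55% to 2.78% and 78.8% to 81.5%.

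Some members fall inside genes of a later annotation. The centre of 23.2% to 38.8% of members per list lay inside a gene of the RefSeq GRCm38.p6 table although the authors' annotation called the peak intergenic. Long noncoding RNA genes held 10.96% to 18.3% of members and protein-coding genes 11.1% to 15.9%. Over the 10 libraries the mean was 30.1% for members and 25.8% for intergenic peaks farther than 10000 bp. The share of members was higher in 10 of 10 libraries, by 4.31 percentage points ± 1.93 (SD, n = 10), with an exact two-sided sign-flip permutation p of 0.00195, the smallest possible (0.00293 after Benjamini-Hochberg adjustment over 3 tests). This comparison was added after the data were seen. Members were taken for lying near an annotated start and farther peaks for lying away from one. The rule therefore bears on this difference, which the p-value cannot separate from any other source. The libraries also share a cell line and an annotation, so they are not independent. For 6142 of 6857 member genes (89.6%) the start implied by the list lay within 50 bp of a RefSeq start.

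The 3 TDP-43 controls shared some gene-near sites, at a share near that of all peaks. Of the 826 members of control 1, 54 (6.54%, 95% Wilson interval 5.04% to 8.43%) were overlapped by peaks of both other controls, against 5.27% of all peaks of that list. At 45 of these sites the overlapping peaks were members in all 3 lists, 36 upstream and 9 downstream of the nearest start, and the centre of 17 lay inside a RefSeq gene. The median peak at these sites had 10, 7 and 7 tags in controls 1 to 3. The number shared by the remaining pair when control 1, 2 or 3 was left out ranged from 85 to 122.

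The site with the most summed tags lay upstream of Irx3, which encodes an Iroquois homeobox transcription factor of embryonic patterning. It held 25, 13 and 10 tags in controls 1 to 3 at chr8:91804423-91804671 (mm10), -2893 bp from the start, and a Pol II S2P control peak of 14 tags and a Myogenin control peak of 14 tags overlapped the site. No TDP-43 siMyolinc peak overlapped it, although that list held another Irx3 member of 8 tags at -1463 bp, in the Irx3os start window printed above.

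The site of Mettl7a1, a methyltransferase-like gene, had 20, 15 and 12 tags in the 3 controls at -7585 bp, and a Pol II S2P control peak had 10. The site of Gipc1, a PDZ-domain scaffold protein, had 14, 12 and 11 tags, that of Chrac1, a histone-fold subunit of a chromatin remodelling complex, 13, 11 and 11, and that of Dnajb8, a heat shock co-chaperone, 14, 9 and 9. The site of Tbx10, a T-box transcription factor, was uneven, with 24, 5 and 7 tags. In none of these 5 did the TDP-43 siMyolinc list hold an overlapping peak. That list held members at other sites of Mettl7a1, with 6 tags, and Dnajb8, with 8 tags, and none of Gipc1, Chrac1 or Tbx10.

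Among the other nearest genes of the shared sites, the following transcription factor and signalling genes were picked after their values were seen. Hoxc8 had 13, 6 and 12 tags at 5391 bp downstream, Hoxb13 13, 5 and 6 tags at -4090 bp, and Hoxc12 8, 6 and 10 tags at 2720 bp downstream. Sox3, a neural progenitor factor, had 15, 5 and 8 tags at -5468 bp, and Mnx1, a motor neuron homeobox gene, had 14, 7 and 6 tags at 7224 bp downstream. Mylk2, which encodes skeletal muscle myosin light chain kinase, had 6, 5 and 8 tags at -9724 bp. Nrarp, a feedback regulator of Notch signalling, had 16, 7 and 5 tags at 5805 bp downstream, and a TDP-43 siMyolinc peak of 11 tags overlapped the peaks of controls 2 and 3 there but not that of control 1.

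**Figure D3:**
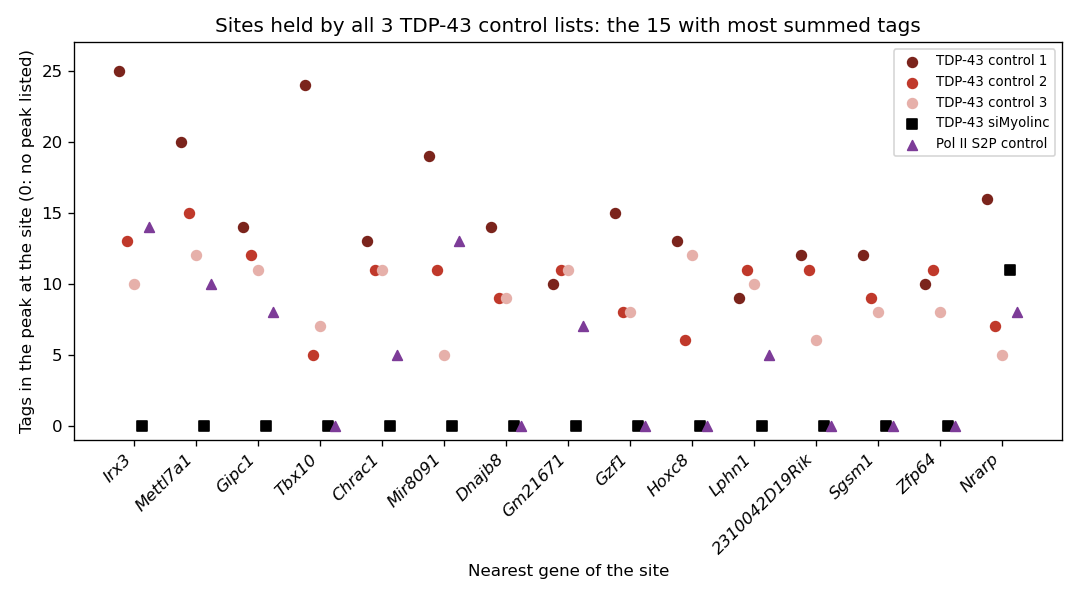
Tags (vertical) in the peak of each of 5 libraries at the 15 sites with most summed tags among those held by all 3 TDP-43 control lists, named by nearest gene (horizontal); a peak of the other 2 libraries is shown where it overlaps the peak of any control, and 0 means that no peak was listed, not that no tags fell there. The siMyolinc TDP-43 library has a peak at 1 of the 15, Nrarp with 11 tags, while Pol II S2P control peaks reach 14 tags at Irx3.

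At 4 of the 45 sites (8.89%, 95% Wilson interval 3.51% to 20.7%) a TDP-43 siMyolinc peak overlapped the peak of at least 1 control, and at 3 (6.67%, interval 2.29% to 17.9%) it overlapped that of control 1. Beside Nrarp, the nearest genes included Ehd1, an endocytic recycling gene, with 9, 6 and 5 tags in the controls and 7 after siMyolinc, and the pseudogene Gm2176, with 7, 7 and 4 tags and then 11. A site with no listed peak after knockdown was below the calling threshold of that list, and the files give no signal there, so loss and a weaker peak cannot be told apart.

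The same recurrence was low for every antibody. In the TDP-43 controls 62 of 826, 23 of 273 and 20 of 214 members were overlapped by a siMyolinc peak, that is 7.51%, 8.42% and 9.35%, against 5.88%, 7.08% and 7.36% of all peaks of these lists. The mean was 8.43% ± 0.920 (SD, n = 3) for members and 6.77% ± 0.788 for all peaks. For Pol II S2P the share was 31 of 273 (11.4%, interval 8.12% to 15.7%) against 10.5% of all peaks. For MyoD it was 36 of 2436 (1.48%, interval 1.07% to 2.04%) against 1.77%, and for Myogenin 19 of 3841 (0.495%, interval 0.317% to 0.771%) against 0.355%. Members thus recurred at shares near those of all peaks of the same list. Overlap with a siMyolinc list was not particular to the same antibody. The Pol II S2P siMyolinc list overlapped 11.02%, 10.26% and 9.81% of members of TDP-43 controls 1 to 3. It also overlapped 3.08% of MyoD and 2.395% of Myogenin control members. The MyoD siMyolinc list overlapped 12.8% of Pol II S2P control members. The Myogenin siMyolinc list overlapped fewer TDP-43, MyoD and Pol II S2P control members than the list of their own antibody. The part of list length was not tested. Peak width differs between the control and siMyolinc lists of MyoD and Myogenin, and its part was not tested. With control peaks extended by 500 bp the MyoD and Myogenin shares were 7.43% and 1.22%. With the same extension the TDP-43 share was 11.2% and the Pol II S2P share 19.05%. Where overlap had to cover 50% of the shorter peak, the Pol II S2P share was 6.96%. At or above the median score in both lists the MyoD share was 0.706%. These alternatives were computed for members only, so whether the share of all peaks changes alike was not tested.

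The members that recurred with the highest tag counts differed between antibodies. Recurred means overlapped by a siMyolinc peak of the same antibody, and whether the factor itself stayed at these sites was not tested. For TDP-43 they included the site 9682 bp downstream of Ppp1r32, a phosphatase regulatory subunit, with 12 tags in control 1 and 12 after siMyolinc. They also included the site of Msx1, a homeobox repressor of myoblast differentiation, at -4444 bp with 11 and 13 tags. The site of BC051142 had 14 and 9 tags in controls 1 and 2 and 11 after siMyolinc.

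For MyoD the leading sites were those of Ccl28, a mucosal chemokine, with 14 and 44 tags, Lyrm7os with 13 and 32, and Teddm1 with 13 and 47. For Myogenin they were those of Rd3, a retinal gene, with 24 and 188 tags, Stk17b, a kinase linked to apoptosis, with 24 and 261, and Rbm15, an RNA-binding protein, with 23 and 265. For Pol II S2P they were another site of Ccl28 with 9 and 17 tags and the site of Krt42, a keratin gene, with 9 and 17. Tag counts after knockdown are not comparable with control, since the lists differ in depth and calling.

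Antibodies met at shared members mainly between TDP-43 and Pol II S2P in control cells. Pol II S2P control peaks overlapped 13.8%, 27.5% and 29.0% of the members of TDP-43 controls 1 to 3, against 12.0%, 19.7% and 21.6% of all their peaks. The share was above the background in 3 of 3 libraries. Conversely, TDP-43 controls 1 to 3 overlapped 39.9%, 27.5% and 23.4% of the 273 Pol II S2P control members, against 33.3%, 19.4% and 16.4% of all peaks of that list. After siMyolinc 6.87% of TDP-43 members, against 6.57% of all peaks of that list, were overlapped by the Pol II S2P siMyolinc list, which had 4332 members of its own. At the 45 sites shared by the TDP-43 controls, 21 (46.7%, interval 32.9% to 60.9%) had a Pol II S2P control peak. The same share was not computed for all peaks shared by the 3 controls. It therefore has no background here and is not a result about gene-near sites. The series holds 1 IgG sample per condition against which lists were called, so a library shared as the comparator cannot be told apart from shared occupancy here.

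MyoD and Myogenin members met at lower shares, between lists that also differ in length and depth from those of TDP-43 and Pol II S2P. Of the 2436 MyoD control members, 62 (2.55%, interval 1.99% to 3.25%) were overlapped by a Myogenin control peak, against 2.58% of all MyoD control peaks. The MyoD siMyolinc list overlapped 1.48% of the same members. Of MyoD siMyolinc members, 0.337% were overlapped by Myogenin siMyolinc, against 0.318% of all peaks, where both lists hold 75 bp peaks.

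**Figure D4:**
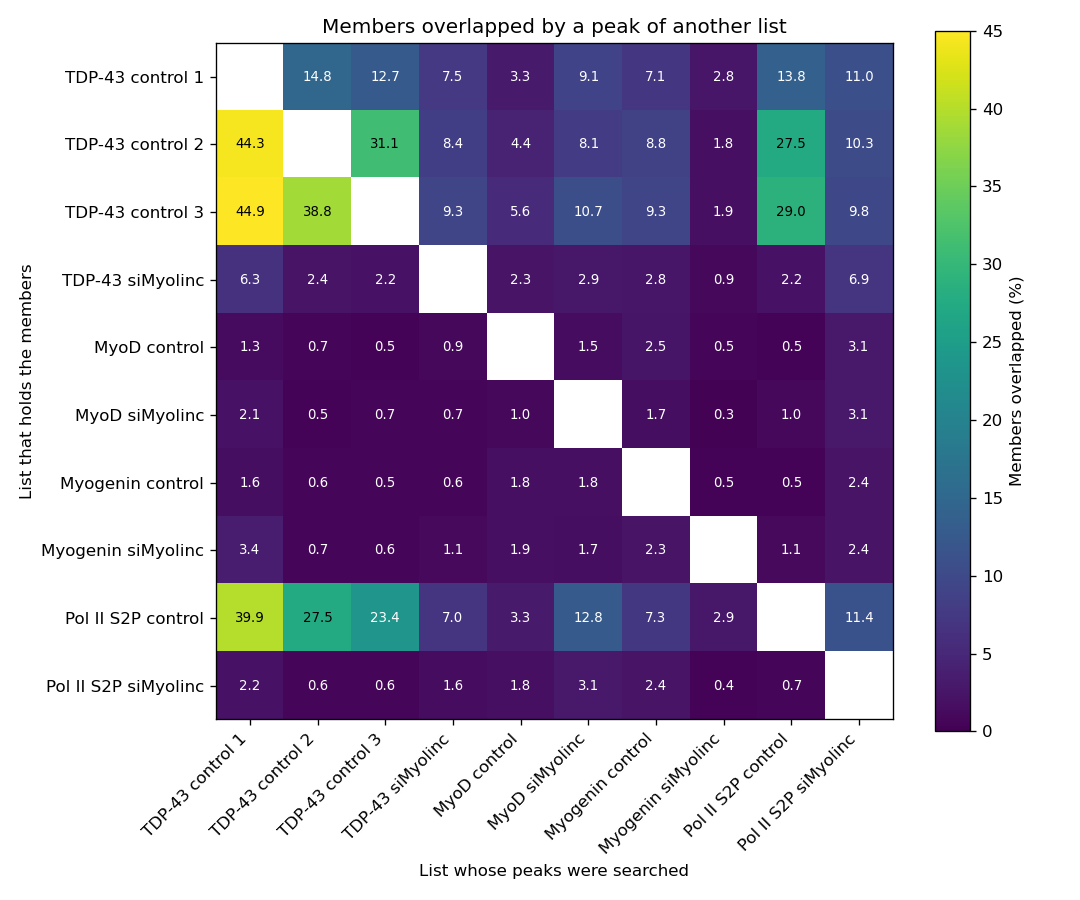
Share of members (%, colour and number) of the list in each row that are overlapped by at least 1 bp of a peak from the list in each column. Pairs among the 3 TDP-43 controls and the Pol II S2P control range from 12.7% to 44.9%, and no control list is overlapped by the siMyolinc list of its own antibody at more than 11.4%.

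Members were nonetheless overlapped by another list more often than farther peaks of the same class. Over the 10 libraries the mean share with a peak of any other list was 33.7% for members and 27.2% for peaks farther than 10000 bp. The members' share was higher in 10 of 10 libraries, by 6.46 percentage points ± 5.58 (SD, n = 10), with an exact two-sided sign-flip p of 0.00195, the smallest possible (0.00293 after Benjamini-Hochberg adjustment). The difference was largest in the shallow control lists, with 74.4% against 59.4% in TDP-43 control 2, and was 2.26 points (exact p = 0.03125, the smallest for 6 libraries) without the 4 shallow control libraries. An overlap counts in both lists, so the libraries are not independent. The share for members was near that of all peaks in several lists, for example 20.1% against 21.2% in TDP-43 siMyolinc. Median tags of members and farther peaks were equal in 7 libraries, higher for members in 2 and lower in 1 (exact p = 1).

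Merged across lists, the members formed 16397 loci, of which 15427 (94.1%) stood in 1 list. There were 722 loci in 2 lists, 180 in 3, 47 in 4 and 21 in 5 or more. Of these 21, 19 had a member of the Pol II S2P control, 18, 16 and 17 of TDP-43 controls 1 to 3, and 8 of TDP-43 siMyolinc.

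The locus of Mir568 stood in 6 lists, with 11, 9 and 6 tags in the TDP-43 controls, 24 in MyoD siMyolinc, and 10 in each Pol II S2P list. The locus of Actrt2, an actin-related gene, also stood in 6. The locus of En1, a homeobox gene, stood in 5 lists with 26 tags in Pol II S2P siMyolinc. Csf2, a cytokine gene, had its locus in 5 lists, with 27 tags in the Myogenin control.

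The nearest genes recurred more than the sites. A total of 9698 of 22838 genes named in the lists had a member in at least 1 list, and 5749 of these in 1 list only. Most members, 87.1%, lay nearest a protein-coding gene and 11.6% nearest a noncoding RNA gene. Irx3 alone had members in all 10 lists, 17 members at 12 separate loci between 1399 and 9719 bp from its start. Gm3336, Mir8091 and Nr4a3, an orphan nuclear receptor gene of the immediate early response, had members in 9 lists. Foxd3, a forkhead gene of the neural crest, and Ptf1a, a basic helix-loop-helix gene of pancreas and cerebellum, were among those with members in 8. A gene with long intergenic flanks offers more room for members, and the part of that in these counts was not tested.

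Between conditions, the genes with a member in every TDP-43 control numbered 62, of which 15 (24.2%) also had a TDP-43 siMyolinc member, against 4.03% of all genes. The 62 included 35 (56.5%) with a Pol II S2P control member, against 1.16% of all genes. Each of the 62 had to stand in 3 lists, whereas the shares of the other antibodies start from 1 control list. Of the genes of TDP-43 controls 1 to 3 taken singly, 16.8%, 16.7% and 21.4% had a TDP-43 siMyolinc member. A Pol II S2P control member stood at 16.8%, 32.7% and 33.98% of them. For MyoD, 587 of 2268 control genes (25.9%) also had a siMyolinc member, against 14.6% of all genes. For Myogenin the share was 173 of 3398 (5.09%) against 2.96%, and for Pol II S2P 113 of 265 (42.6%) against 16.0%. Of the 920 genes of TDP-43 siMyolinc, 152 (16.5%) had a member in any TDP-43 control, against 4.19% of all genes. These shares stood above the background for all 4 antibodies and were not tested. Lists of different antibodies shared genes above it as well. Of MyoD control genes, 25.4% had a Myogenin control member, against 14.9% of all genes, and 25.8% a Pol II S2P siMyolinc member, against 16.0%. Of TDP-43 control 1 genes, 12.1% had a Myogenin siMyolinc member, against 2.96%. An excess over all genes is thus not particular to lists of the same antibody.

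Some genes with a member in all 3 TDP-43 controls had no site common to all 3. Foxd3 had 17, 5 and 5 tags at its highest peak in the controls and no TDP-43 siMyolinc member. Zfp503, a zinc finger repressor gene, had 11, 8 and 6 tags and then 12 after siMyolinc. Pax5, a B cell factor, had 11, 6 and 9 tags in the controls.

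Muscle genes were mostly near the background or below it. Of 94 genes of muscle structure and contraction, 36 (38.3%) had a member in any list, against 43.5% of 19732 protein-coding genes. In TDP-43 controls 1 to 3, 4, 1 and 1 of the 94 had a member, that is 4.26%, 1.06% and 1.06%, against 3.29%, 1.17% and 0.892% of protein-coding genes. In TDP-43 siMyolinc 4 had one (4.26%, against 4.07%). Each MyoD list had 10 (10.6%), against 10.1% of protein-coding genes in control and 14.6% after siMyolinc. The Myogenin control had 12 (12.8%, against 15.2%) and Myogenin siMyolinc 3 (3.19%, against 2.97%). The Pol II S2P control had 0, against 1.18%, and Pol II S2P siMyolinc 16 (17.0%, against 16.3%).

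Among the muscle genes with TDP-43 members, Myl3, an essential myosin light chain, had 12 and 7 tags in controls 1 and 3 at overlapping sites near -5636 bp and a separate peak of 7 tags at -7790 bp after siMyolinc. Myl2 had 15 tags in control 1, and Myh8, perinatal myosin heavy chain, had 5. Tnnc2, fast troponin C, had 8 tags, Chrna1, the muscle acetylcholine receptor subunit, 9, and Lmod2, an actin-filament nucleator, 6, all in the siMyolinc list alone among TDP-43 lists.

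Ankrd1 encodes a titin-binding stress-response protein, and its peak at -1583 bp held 52 tags, the most of any member in the Myogenin control. The MyoD control had an Ankrd1 peak of 6 tags at -2084 bp and Pol II S2P siMyolinc peaks of 18 and 10 tags. Mypn, which encodes the Z-disc protein myopalladin, had members in both MyoD lists, the Myogenin control and Pol II S2P siMyolinc, the MyoD control peak at -8345 bp and a MyoD siMyolinc peak at -8162 bp lying close together with 6 and 23 tags. Csrp3, a muscle LIM protein, had 13 tags at -5219 bp in the MyoD control and 25 at -5496 bp after siMyolinc. Trim63, a ubiquitin ligase of muscle atrophy, had 15 tags in the MyoD control and 29 and 16 after siMyolinc. Myh3, embryonic myosin heavy chain, had 29 tags in the Myogenin control at -6044 bp and 42 in MyoD siMyolinc at -8105 bp.

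Of 47 myogenic regulators named in the lists, 24 (51.1%) had a member in any list, against 43.5% of protein-coding genes. In TDP-43 controls 1 to 3, 5, 2 and 1 had a member (10.6%, 4.26% and 2.13%), against 3.29%, 1.17% and 0.892%. In TDP-43 siMyolinc 1 had one (2.13%, against 4.07%). In control and siMyolinc the MyoD shares were 8.51% and 19.1%, against 10.1% and 14.6%. Those of Myogenin were 23.4% and 4.26%, against 15.2% and 2.97%. Those of Pol II S2P were 6.38% and 25.5%, against 1.18% and 16.3%. None was tested. Twist1, an inhibitor of myogenic factors, had members in 7 lists, with 11 and 6 tags in TDP-43 controls 1 and 2 at 4839 and 4885 bp downstream. Id1, which sequesters E-proteins, had members in 5 lists, and at -6469 to -6376 bp peaks of TDP-43 control 3 (6 tags), the Pol II S2P control (6 tags) and MyoD siMyolinc (38 tags) met. Tcf3, the gene of E12 and E47, partners of MyoD, had overlapping peaks at -4563 to -4511 bp in TDP-43 control 1 (5 tags) and both Pol II S2P lists (6 and 14 tags). Pax7, the satellite cell factor, had 10 tags in TDP-43 control 1 at -7242 bp.

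Myod1 itself had members only after siMyolinc, a MyoD peak of 47 tags at -9956 bp and a Pol II S2P peak of 34 tags at -4998 bp, the MyoD peak lying at the edge of the 10 kb window. Myog had a MyoD control member of 8 tags at -8091 bp and a MyoD siMyolinc member of 35 tags at -4273 bp, at separate sites. Acta1, skeletal actin, had a Pol II S2P siMyolinc member of 13 tags 4774 bp downstream. Filip1, the neighbour of Myolinc, Cdkn1a, a cell cycle inhibitor, and Tardbp had no member in any list.

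**Figure D5:**
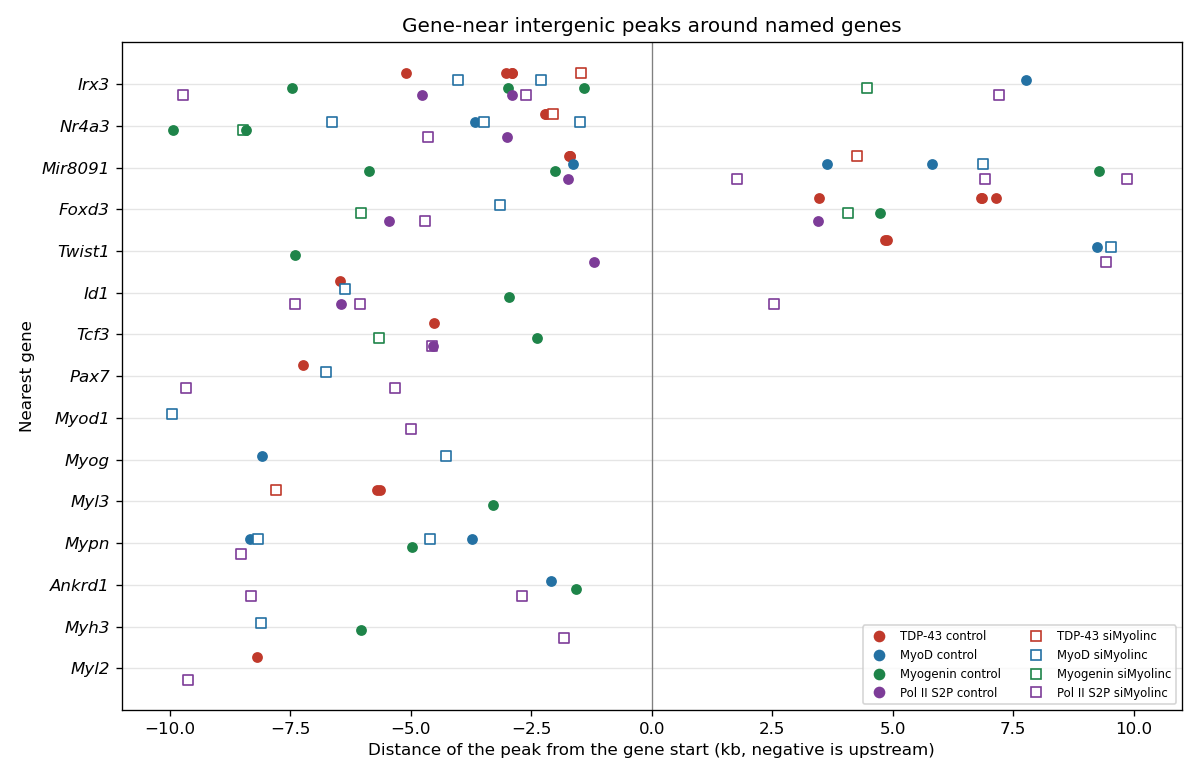
Position of every member (horizontal, kb from the gene start, negative is upstream) around 15 named genes (vertical), by antibody (colour), with control lists as filled circles and siMyolinc lists as open squares. Irx3 carries members of all 10 lists, while Myod1 carries only siMyolinc peaks, at -9956 and -4998 bp.

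The other gene lists lay on both sides of the share of protein-coding genes. Members lay nearest 23 of 38 extracellular matrix and fibroblast genes (60.5%), 26 of 48 neuronal and synaptic genes (54.2%) and 21 of 49 cell cycle genes (42.9%), against 43.5% of protein-coding genes. They lay nearest 265 of 968 microRNA genes (27.4%) and 22 of 83 small nuclear and nucleolar RNA genes (26.5%). No share over all noncoding genes was computed, so these counts have no background of their own kind. Olfactory receptor genes, large clustered families expressed mainly in the nose, had members most often in the Myogenin control, 238 of 1004 (23.7%), against 15.2% of protein-coding genes. In the MyoD control the count was 88 (8.76%, against 10.1%), in Pol II S2P siMyolinc 97 (9.66%, against 16.3%) and in TDP-43 control 1 20 (1.99%, against 3.29%). The lists were chosen with results of these data known, and these shares are descriptions.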

How the data were processed

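The authors called 10 peak lists, 1 per library, against IgG and annotated them with HOMER on mm10, per the file headers and, for build and tool, the submitters' processing notes. Not given in the sources used here were the version of HOMER, the aligner and the settings. The deposited peak score was divided in each list by the step of which scores were whole multiples (tolerance 0.05, top 1% set aside) and reported as tags. That HOMER scaled scores to 10000000 tags is its default and stated in no header. The focus ratio is a fraction between 0 and 1 in the deposited lists and was not used. The distance to the nearest start and the nearest gene are the authors' own, per the file headers.

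Overlap was counted at 1 bp or more. Intervals are 95% Wilson intervals and speak to counting error alone, as PCR copies are no independent molecules. Tests were the exact permutation of 3 against 1 libraries and the exact sign-flip test over 10 libraries, both two-sided, at 0.05, with Benjamini-Hochberg adjustment over 3 tests. They were tested on simulated data. Python 3.11.15, pandas 2.3.3, numpy 2.4.6, scipy 1.17.1 and matplotlib 3.10.9 were used. RefSeq tables of GRCm38.p6 gave gene bodies, start windows and mature microRNAs, and 22767 of 22838 gene IDs matched.

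Members and gene lists were chosen with earlier results of these data known. Named genes followed a rule: the 3 members with most tags per list, the sites and genes shared by the TDP-43 controls or held by most lists, the members found again after siMyolinc, muscle and regulator genes with members in at least 2 lists or in a TDP-43 list, and Filip1, Myod1, Myog, Acta1, Cdkn1a and Tardbp. Transcription factor genes were picked out of the shared sites after their values were seen. Alternatives changed the distance window, score, list length, repeats, overlap and libraries. Base composition and motifs of whole peaks were planned but not analysed here, since no genome sequence was used. Sites on chromosome 18 are named without sequence, and some genes that the rule names are not reported here.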

Additional observations from a re-analysis of the deposited data

Results flagged for a closer look

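The upstream share of members differed from control in opposite directions after siMyolinc for different antibodies, and the difference was not tested, since siMyolinc had 1 library per antibody. For MyoD and Myogenin the Wilson intervals of control and siMyolinc overlapped, so a fall in either is not shown beyond counting error. The shift for TDP-43 exceeded that for MyoD by 6.76 percentage points and that for Myogenin by 6.78 points. The shift for MyoD minus that for Pol II S2P was -7.41 points, and for Myogenin minus Pol II S2P it was -7.43 points. The share was higher after siMyolinc for TDP-43 and Pol II S2P and lower for MyoD and Myogenin, the first pair with controls of 962363 to 1455038 tags and the second with controls of 3378215 and 3400139 tags. The part of depth in this was not tested.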

How the results depend on the processing

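The 10 kb window set the counts of sites and genes in all 3 TDP-43 controls: 27 sites and 27 genes at 5000 bp, 84 and 106 at 20000 bp, against 54 and 62. Leaving out 1 control gave 85 to 122 sites and 88 to 137 genes, since fewer lists had to share them. The recurrence of TDP-43 members ranged from 7.97% to 8.89% when a control was left out. It was 6.41% with overlap of 50% of the shorter peak, 11.2% with control peaks extended by 500 bp, 6.34% at 5000 bp and 6.47% at or above the median score, the cause not being tested. For MyoD it was 7.43% with extension and 0.706% at or above the median score, for Myogenin 1.22% with extension, and for Pol II S2P 19.05% with extension and 6.96% with 50% overlap. These recurrence values cover members only and have no share of all peaks beside them. Without the siMyolinc MyoD and Myogenin libraries the mean difference in median tags between members and farther peaks turned from -0.70 to 0.25 (exact p = 0.5). The member share of TDP-43 turned to -2.50 points as a share of intergenic peaks outside repeats and CpG islands, an alternative added after seeing the data, and otherwise stayed higher after siMyolinc, by 0.612 points at 5000 bp to 2.22 at 20000 bp. The upstream share stayed higher in the alternatives tried, by 1.61 points at 5000 bp (exact p = 0.5) to 7.94 points with lists of equal length. At 3 against 1 neither could pass a threshold. Over the alternatives, 45 values kept their direction and side, 18 moved and 2 reversed. No paired analysis was possible because siMyolinc has 1 library per antibody, so the groups share fewer than 2 replicate numbers. Alternatives for base composition and for CAGCTG and TGTGTG in whole peaks were not run. Depth limits the TDP-43 and Pol II S2P controls, whose weakest members had 4 tags.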

Other observations

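Among the nearest genes of the 45 sites held by all 3 TDP-43 controls, 10 (22.2%) had a description with the words homeobox, T-box, Iroquois, SRY, paired box or forkhead, against 1.41% of all 22838 genes. The words were chosen after the genes were seen, so no test was made. Over all members the share of nearest genes with these words was 8.98%, 9.51% and 12.6% in TDP-43 controls 1 to 3 and 9.06% in the Pol II S2P control. In the other 6 lists it was 2.03% to 4.14%, with 3.59% in TDP-43 siMyolinc. The 4 lists above 8% were those of lowest depth, and the part of depth in this was not tested.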
